A study of Mus musculus with 3 samples.

Results

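The 10 genes described here make and move bile acids in the liver: the cytochrome P450 enzymes Cyp7a1, Cyp8b1, Cyp27a1 and Cyp7b1, the conjugating enzyme Baat, the export pumps Abcb11 and Abcc2, the uptake carrier Slc10a1, and the nuclear receptors Nr1h4 and Nr0b2. They were chosen by name for their roles, and all non-control probes that matched one of them by RefSeq accession were taken. They are 10 of 20284 genes named on the array and 10 of the 13626 genes measured on all 3 arrays. The 10 genes had 11 probes, and all 11 were well above background on every array.

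RNA of whole liver was hybridised to 3 one-colour Agilent arrays, 1 for each form of human YAP, a transcriptional coactivator that the Hippo pathway holds back. The mice were c57BL6/J males, 8 weeks old at injection per the study's methods, and all 3 groups received a Myc-tagged YAP plasmid by hydrodynamic tail vein injection 2 days before the livers were taken. The groups were YAP (WT), the wild-type protein, and YAP (1SA) and YAP (2SA), which are active mutants. The pLIVE vector drives expression in hepatocytes from a mouse AFP enhancer and a minimal albumin promoter, and it reaches some hepatocytes and leaves others, so each array holds RNA of a mosaic liver. The title of the YAP (WT) sample carries the number 2, and whether the RNA was of a single animal or pooled is not stated in the labels. No uninjected liver was analysed here, and YAP (WT) served as the control.

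With 1 array in each group there were no replicates, and no test between groups was possible. A difference between groups cannot be told apart from a difference between the liver samples. Both mutants were compared with the same YAP (WT) array, so these comparisons are not independent of each other. The only repeat measurement was between repeated spots of a probe, whose median SD was 0.077, 0.073 and 0.075 on the log2 scale on the YAP (WT), YAP (1SA) and YAP (2SA) arrays. A difference between arrays of more than 0.21 on the log2 scale, which is 2 SD of a difference from this source, is called here larger than the spot error. This limit covers the spots and not the animals, and it was passed upwards by 15.7% and downwards by 18.7% of all 13626 genes in YAP (1SA) against YAP (WT).

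Bile acids are made from cholesterol in hepatocytes. In the classical route CYP7A1 adds a hydroxyl group to the sterol ring and sets the rate, and CYP8B1 then directs the product towards cholic acid. In the alternative route CYP27A1 oxidises the side chain and CYP7B1 hydroxylates the ring. BAAT joins the acids to taurine or glycine, ABCB11 and ABCC2 pump them and other conjugates into the canaliculus, and SLC10A1 takes them back up from portal blood. The receptor FXR, encoded by Nr1h4, senses bile acids and induces SHP, encoded by Nr0b2, which represses Cyp7a1 and Cyp8b1.

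The 4 P450 enzymes gave the widest differences of the set, and each route held 1 gene past 2-fold. Cyp7a1 was 3.53-fold lower in YAP (2SA) than in YAP (WT), and Cyp7b1 was 2.29-fold higher in YAP (1SA) than in YAP (WT). Cyp8b1 and Cyp27a1 were higher in both mutants, by 1.40-fold to 1.78-fold. Baat, Nr1h4 and the brighter probe of Slc10a1 differed from YAP (WT) by less than the spot error in both mutants.

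The signal of a probe is given below as a multiple of the 75th percentile of all non-control spots on its array, called the scaled signal. Probes differ in how brightly they bind, so signals are compared between arrays for 1 probe and not between genes.

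**Figure D1:**
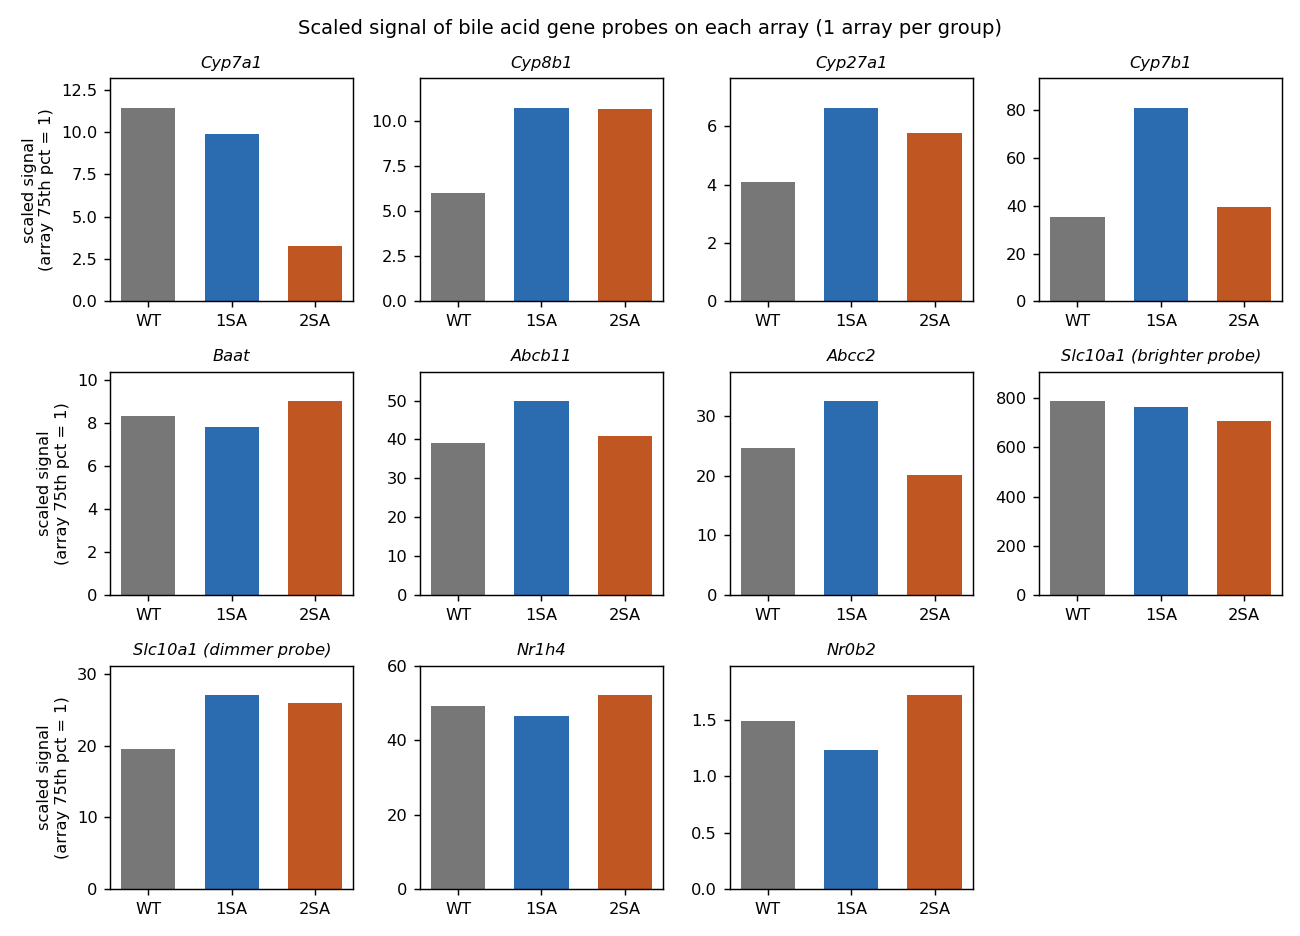
Each panel shows 1 probe, with bars from 0 for the scaled signal on the YAP (WT), YAP (1SA) and YAP (2SA) arrays, where 1 is the array's 75th percentile. There is 1 array per group and so no error bar. The Cyp7a1 bar of YAP (2SA) stands at 3.25 against 11.4 for YAP (WT), and the Cyp7b1 bar of YAP (1SA) stands at 81.2 against 35.4.

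Cyp7a1 (NM_007824) encodes the rate-limiting enzyme of the classical route. Its intensity was 3329 on the YAP (WT) array, 2720 on YAP (1SA) and 1037 on YAP (2SA), which gave scaled signals of 11.4, 9.87 and 3.25. YAP (2SA) was low, while YAP (1SA) lay close to YAP (WT). The difference from YAP (WT) was -1.82 on the log2 scale in YAP (2SA), the 19th lowest of 13626 genes, and -0.21 in YAP (1SA), which only just passed the spot error. YAP (2SA) was also below YAP (1SA), by -1.60 on the log2 scale or 3.04-fold, the 33rd lowest of all genes. The low value thus stood against both of the other arrays.

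Cyp8b1 (NM_010012) encodes the sterol hydroxylase that sets the share of cholic acid. Its intensity was 1756 in YAP (WT), 2967 in YAP (1SA) and 3406 in YAP (2SA), and its scaled signal was 6.04, 10.8 and 10.7. Both mutants were high and lay within the spot error of each other. The difference from YAP (WT) was 0.83 on the log2 scale in YAP (1SA), the 164th highest gene, and 0.82 in YAP (2SA), the 250th highest. The gap between the mutants was -0.01 on the log2 scale.

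Both enzymes of the classical route therefore differed in opposite directions in YAP (2SA). The Cyp8b1 difference from YAP (WT) exceeded that of Cyp7a1 by 2.64 on the log2 scale in YAP (2SA) and by 1.05 in YAP (1SA). This difference within an array does not depend on the percentile used for scaling, and it shows unequal change of the 2 genes.

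Cyp27a1 (NM_024264) encodes the mitochondrial sterol hydroxylase that opens the alternative route. It was the only gene of the set with repeated spots, 8 used on YAP (WT) and 10 on each mutant array. The mean intensity was 1195 in YAP (WT), with spots from 1149 to 1262. It was 1832 in YAP (1SA), with spots from 1704 to 1936, and 1843 in YAP (2SA), with spots from 1750 to 1927. All spots of both mutant arrays were brighter than every YAP (WT) spot before scaling. Scaled signals were 4.11, 6.64 and 5.77, and the difference from YAP (WT) was 0.69 (SE over spots 0.019) in YAP (1SA) and 0.49 (SE over spots 0.018) in YAP (2SA) on the log2 scale. YAP (2SA) lay below YAP (1SA) by -0.20 (SE over spots 0.021), inside the limit set for single spots and outside the error of these repeated spots. These errors come from spots of 1 hybridisation and hold no spread between animals.

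Cyp7b1 (NM_007825) encodes the oxysterol hydroxylase, the next step of the alternative route. Its intensity was 10299 in YAP (WT), 22390 in YAP (1SA) and 12608 in YAP (2SA), with scaled signals of 35.4, 81.2 and 39.5. YAP (1SA) alone was high. It was above YAP (WT) by 1.20 on the log2 scale, the 60th highest gene, and YAP (2SA) was below YAP (1SA) by -1.04, the 138th lowest. Under quantile normalisation the latter was -0.92, short of 2-fold. YAP (2SA) exceeded YAP (WT) by 0.16, within the spot error. The Cyp7b1 difference from YAP (WT) was larger than that of Cyp27a1 by 0.50 on the log2 scale in YAP (1SA), and smaller by -0.33 in YAP (2SA).

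The plan was to show promoters of genes with a range over 1 on the log2 scale, which were Cyp7a1 and Cyp7b1, but the reference used held neither. The sequences just before the start sites of Cyp8b1 and Cyp27a1 are shown instead because these were the enzymes that were higher in both mutants, a choice made after their values were seen. They are the 250 bases upstream of the RefSeq start site in build GRCm38.p6, written 5′ to 3′ on the strand of the gene, and lie at chr9:121916306-121916555 on the minus strand for Cyp8b1 and at chr1:74713285-74713534 on the plus strand for Cyp27a1. Capitals mark a match to a binding motif of HNF4A, the hepatocyte receptor that activates many bile acid genes.
Cyp8b1: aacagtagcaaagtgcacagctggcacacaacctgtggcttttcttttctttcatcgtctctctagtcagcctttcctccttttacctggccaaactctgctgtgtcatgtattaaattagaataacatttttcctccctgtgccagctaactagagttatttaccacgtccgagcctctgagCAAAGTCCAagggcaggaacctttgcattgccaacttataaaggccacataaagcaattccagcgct
Cyp27a1: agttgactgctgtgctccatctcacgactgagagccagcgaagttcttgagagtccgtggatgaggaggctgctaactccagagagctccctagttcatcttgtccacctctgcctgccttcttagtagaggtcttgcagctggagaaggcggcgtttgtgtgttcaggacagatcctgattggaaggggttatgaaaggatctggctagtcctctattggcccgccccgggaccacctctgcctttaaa

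Cyp7a1, Cyp7b1 and Baat had no promoter entry in the reference used and were not searched, so neither gene past 2-fold is covered. Entries for the other 7 of the 10 genes were matched, with 8 promoters in all since Slc10a1 has 2. Each was searched on both strands for 4 motifs: GGAATG of the TEAD factors through which YAP acts, CAAGGTCA of NR5A2 (LRH-1), CAAAGTCCA of HNF4A, and GGTCANTGACC, an inverted repeat of the kind FXR binds. The only match was CAAAGTCCA in Cyp8b1, from 67 to 59 bases upstream of the start site. Of all 32851 promoters searched, 0.384% held CAAAGTCCA, 12.6% GGAATG, 1.33% CAAGGTCA and 0.0335% GGTCANTGACC. These are letter matches in short windows and describe no binding.

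Baat (NM_007519), which encodes the enzyme that conjugates bile acids, had scaled signals of 8.30 in YAP (WT), 7.81 in YAP (1SA) and 9.001 in YAP (2SA). These correspond to differences from YAP (WT) of -0.09 and 0.12 on the log2 scale, and the mutants were 0.21 apart. All 3 gaps were within the spot error, though the gap between the mutants passed it under quantile normalisation and normexp, at 0.23 in both.

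The canalicular exporters were both brightest in YAP (1SA). Abcb11 (NM_021022), the bile salt export pump, had scaled signals of 39.0 in YAP (WT), 49.8 in YAP (1SA) and 40.9 in YAP (2SA). It was 0.35 above YAP (WT) on the log2 scale in YAP (1SA), past the spot error, and 0.07 above it in YAP (2SA), within it.

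Abcc2 (NM_013806), also called MRP2, exports conjugated organic anions. Its scaled signal was 24.5 in YAP (WT), 32.4 in YAP (1SA) and 20.2 in YAP (2SA), so the mutants lay on either side of the control. The difference from YAP (WT) was 0.40 on the log2 scale in YAP (1SA) and -0.28 in YAP (2SA), each past the spot error, and the mutants were -0.69 apart, or 1.61-fold. The Abcc2 difference was 0.05 larger than that of Abcb11 in YAP (1SA) and below it by -0.35 in YAP (2SA).

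Slc10a1 (NM_011387) encodes NTCP, the main sodium-dependent bile acid uptake carrier of the hepatocyte, and was the only gene of the set with 2 probes. The brighter probe had scaled signals of 788 in YAP (WT), 763 in YAP (1SA) and 707 in YAP (2SA), which are differences from YAP (WT) of -0.05 and -0.16 on the log2 scale. The dimmer probe had scaled signals of 19.6, 27.1 and 26.0, which are differences of 0.47 and 0.41. The probes disagreed: the brighter one was within the spot error and the dimmer one was higher in both mutants. No spot was saturated, including those of the brighter probe, whose intensity of up to 229022 lay below the saturation value of 778440. No direction is given for Slc10a1.

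Both regulators had small differences. Nr1h4 (NM_001163504), which encodes FXR, had scaled signals of 49.3 in YAP (WT), 46.5 in YAP (1SA) and 52.2 in YAP (2SA), with differences from YAP (WT) of -0.08 and 0.08 on the log2 scale. Nr0b2 (NM_011850), which encodes SHP, had scaled signals of 1.49, 1.23 and 1.72. It was -0.27 below YAP (WT) in YAP (1SA), past the spot error, and 0.21 above it in YAP (2SA), at the limit (0.23 with the array median as the scale and 0.12 under normexp). YAP (2SA) exceeded YAP (1SA) by 0.49 on the log2 scale, or 1.40-fold. The array with the lowest Cyp7a1 signal was thus also that with the highest Nr0b2 signal, though the latter lay at the limit of spot error from YAP (WT). Cyp8b1, which SHP also represses, was 0.82 above YAP (WT) on the log2 scale on that array. The part of SHP in these differences was not tested.

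**Figure D2:**
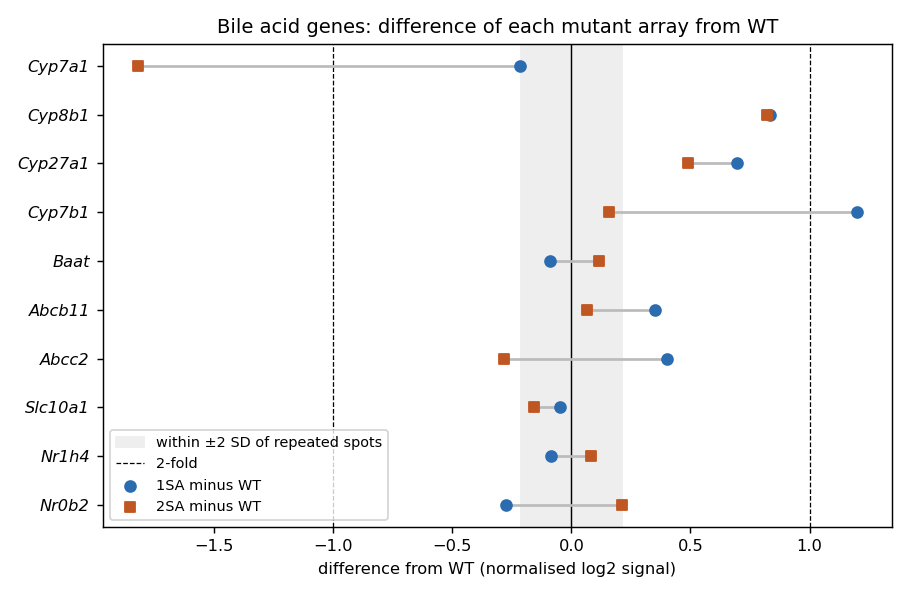
The horizontal axis is the difference of each mutant array from the YAP (WT) array in normalised log2 signal, with circles for YAP (1SA), squares for YAP (2SA), the brighter probe for Slc10a1, a grey band for 2 SD of repeated spots and dashed lines at 2-fold. Cyp7a1 at -1.82 and Cyp7b1 at 1.20 are the points beyond the dashed lines, and the Cyp8b1 symbols overlap at 0.83 and 0.82.

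The order of the 3 arrays differed between genes. YAP (1SA) was the highest array for Cyp8b1, Cyp27a1, Cyp7b1, Abcb11 and Abcc2, although the mutants differed by only -0.01 on the log2 scale for Cyp8b1. For Cyp27a1 the gap between the mutants, -0.20, was within the limit for single spots but several times the error of its repeated spots. The gap between the mutants for Abcb11 was -0.29, and -0.18 under quantile normalisation, which is within the spot error. YAP (2SA) was the highest for Baat, Nr1h4 and Nr0b2. For Baat and Nr1h4 both neighbouring gaps were within the spot error, and for Nr0b2 the gap from YAP (WT) lay at its limit. Both neighbouring gaps of Abcc2 passed the spot error. The smaller gap of Cyp7a1, between YAP (1SA) and YAP (WT), passed it at -0.21 only in the next decimal and was -0.18 with the array median as the scale.

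Counted over the set, 1 of 10 genes was at least 2-fold higher in YAP (1SA) than in YAP (WT), against 0.727% of all genes, and 0 were at least 2-fold lower, against 1.14%. The gene was Cyp7b1. At 1.5-fold, 3 were higher (Cyp7b1, Cyp8b1 and Cyp27a1), against 3.08% of all genes, and 0 were lower, against 4.67%. In YAP (2SA) against YAP (WT), 0 were at least 2-fold higher, against 1.12%, and 1 was lower, Cyp7a1, against 0.543%. At 1.5-fold, 1 was higher (Cyp8b1), against 3.79%, and 1 lower (Cyp7a1), against 3.02%. In a set of 10 genes a single gene is 10% of the set, so counts of 0 and 1 say little about the set as a whole.

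In YAP (2SA) against YAP (1SA), 0 genes were at least 2-fold higher, against 2.47% of all genes, and 2 were lower, Cyp7a1 and Cyp7b1, against 1.12%. At 1.5-fold, 0 were higher, against 6.99%, and 3 were lower with Abcc2 added, against 4.56%. The median difference over the 10 genes was 0.15 on the log2 scale for YAP (1SA) against YAP (WT), 0.10 for YAP (2SA) against YAP (WT) and -0.16 for YAP (2SA) against YAP (1SA), beside -0.002, -0.03 and -0.03 over all genes. For YAP (2SA) against YAP (WT) the mean of the 10 was -0.03, below 0 where the median was above it, since Cyp7a1 lay far below the rest.

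The rest of the pathway was read from lists of other synthesis, transport and regulatory genes. Of 16 other synthesis genes, most of which act on the ring and side chain after the first hydroxylation, 15 were measured on all arrays and 0 passed 1.5-fold in any of the 3 comparisons, where the shares of all genes are those given above for 1.5-fold. Their differences from YAP (WT) ran from -0.28 to 0.28 on the log2 scale in YAP (1SA) and from -0.37 to 0.31 in YAP (2SA), with medians of 0.04 and -0.03. Examples in YAP (1SA) and YAP (2SA) were Akr1d1, the steroid reductase of the ring, at 0.25 and -0.03, Slc27a5, a bile acid ligase, at 0.28 and -0.01, and Amacr, a racemase of the side chain, at 0.01 and -0.37. Cyp39a1, an oxysterol hydroxylase, was at -0.24 and 0.31, and at 0.55 in YAP (2SA) against YAP (1SA). Ch25h, the remaining gene, was well above background on 2 arrays and is given no difference.

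Among other transporters, 15 of 16 were measured, and Slco1a1, an organic anion carrier of the sinusoidal side, was the only one past 2-fold. Its intensity was 919 in YAP (WT), 1781 in YAP (1SA) and 1528 in YAP (2SA), which are differences from YAP (WT) of 1.03 and 0.60 on the log2 scale. Like Cyp8b1 and Cyp27a1 it was higher on both mutant arrays. Slco1a4, a related carrier, was lower, with differences of -0.59 and -0.41, and these carriers have near relatives in the genome.

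Other transporters past 1.5-fold were Abcg8, a subunit of the canalicular cholesterol exporter, at -0.59 in YAP (2SA), and Slc10a5, a relative of Slc10a1, at -0.66 in YAP (2SA) against YAP (WT). Abcg5, the partner of Abcg8, was at -0.54. Slc10a5 was dim, with intensities of 57.6, 56.5 and 40.1 on the YAP (WT), YAP (1SA) and YAP (2SA) arrays. Abcb1a, a multidrug exporter, was 0.86 higher in YAP (2SA) than in YAP (1SA). The median over the list was 0.02 in YAP (1SA) and -0.26 in YAP (2SA) against YAP (WT), with 12 of 15 genes below 0 in YAP (2SA), as were 56.4% of all genes. At 1.5-fold, 1 was higher and 1 lower in YAP (1SA), against 3.08% and 4.67% of all genes, and 1 was higher and 2 lower in YAP (2SA), against 3.79% and 3.02%. Slc51a, of the basolateral exporter, was well above background on 0 arrays.

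Of 19 other regulators, 17 were measured and 0 passed 2-fold. At 1.5-fold, 2 were lower in YAP (2SA) than in YAP (WT), against 3.02% of all genes, and 0 were higher or lower in YAP (1SA), against 3.08% and 4.67%, with medians of -0.08 and 0.07 on the log2 scale. Foxa2, a forkhead factor of the hepatocyte, had an intensity of 4196 in YAP (WT), 3718 in YAP (1SA) and 2648 in YAP (2SA). Its difference from YAP (WT) was -0.10 and -0.80 on the log2 scale, and its other probe gave -0.16 and -0.69. Nr1i3, which encodes the xenobiotic receptor CAR, was at 0.14 and -0.65, with 0.23 and -0.63 at its other probe. Both were low in YAP (2SA), as Cyp7a1 was. Nr5a2 (0.10 and -0.08), Hnf4a (0.27 and -0.12), Fgfr4 (0.08 and -0.08) and Klb (0.07 and 0.08), which take part in the control of Cyp7a1, passed 1.5-fold in neither mutant. Vdr and Fgf15, an intestinal hormone, were well above background on 0 arrays.

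**Figure D3:**
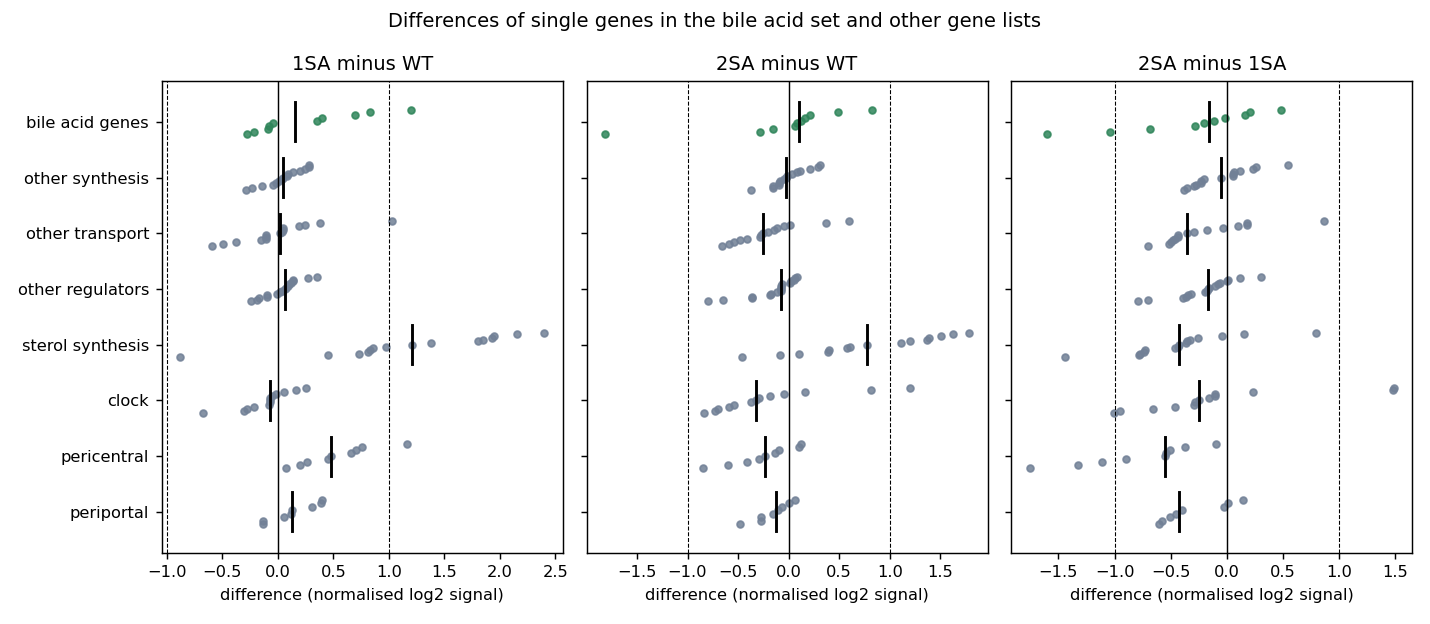
Each point is 1 gene measured on all arrays, placed by its difference in normalised log2 signal (horizontal axis) in the 3 comparisons, with 1 row per gene list, black bars at list medians and dashed lines at 2-fold. In YAP (2SA) against YAP (WT) the bile acid genes include 1 point far to the left, Cyp7a1 at -1.82, while the other synthesis genes lie between -0.37 and 0.31.

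Sterol synthesis supplies cholesterol, the substrate of the pathway. Of 15 such genes, 8 were at least 2-fold higher in YAP (1SA) than in YAP (WT), against 0.727% of all genes. In YAP (2SA) 7 were, against 1.12%. The medians over the 15 genes were 1.21 and 0.77 on the log2 scale. By median these genes were higher on the same arrays as Cyp8b1 and Cyp27a1.

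Cyp7a1 is known to follow the clock, so the clock genes are given beside it. Of 13 measured, 10 were below YAP (WT) in YAP (2SA), as were 56.4% of all genes, with a median of -0.32 on the log2 scale. Among them were Per2 at -0.73, Cry1 at -0.70, Bhlhe41 at -0.59 and Dbp at -0.54. Cry1 and Bhlhe41 were dim, with intensities of 14.6 and 16.9 in YAP (2SA). Arntl was 1.20 above YAP (WT) on the log2 scale in YAP (2SA), and Nr1d1, a repressor of the clock, was 0.82 above it, while Ciart was -0.84 below. Arntl was dim as well, with intensities of 47.0, 36.8 and 119 on the YAP (WT), YAP (1SA) and YAP (2SA) arrays. In YAP (1SA) Arntl, Nr1d1 and Ciart were at -0.28, -0.67 and 0.17, and the median over the list was -0.07. There too 10 of 13 were below YAP (WT), as were 50.3% of all genes. The time of day at which the livers were taken is not given in the sources used here, and the part of the clock in the Cyp7a1 difference was not tested.

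Cyp7a1 is known to be used mostly by hepatocytes near the central vein, so genes of that zone are given too. All 9 pericentral genes, such as Glul and Cyp2e1, were above YAP (WT) in YAP (1SA), with a median of 0.48 on the log2 scale. Of all genes, 50.3% were below YAP (WT) there. All 9 pericentral genes were lower in YAP (2SA) than in YAP (1SA), as were 54.4% of all genes, with a median of -0.55. Against YAP (WT) their median in YAP (2SA) was -0.24, and Lgr5 and Axin2, targets of Wnt signalling, were at -0.60 and -0.84 (1.16 and 0.48 in YAP (1SA)). Their summed scaled signal was 711 in YAP (WT), 856 in YAP (1SA) and 632 in YAP (2SA). The 8 periportal genes had medians of 0.13 and -0.13 against YAP (WT). In YAP (2SA) against YAP (1SA) their median was -0.42, with 6 of 8 below 0, as were 54.4% of all genes. The periportal sum of scaled signal was 1321, 1637 and 1210, so both zones had the same order of arrays. The part of zonation in the Cyp7a1 and Cyp7b1 differences was not tested.

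By profile over the 3 arrays, the genes nearest to Cyp7a1 were Mfsd2a, a lipid transporter, Irx3, a homeobox factor, and Slc22a3, an organic cation carrier, at root mean square distances of 0.12, 0.14 and 0.18 on the log2 scale among 825 genes compared. These 3 were the only genes within 0.2. Mfsd2a had intensities of 1581, 1066 and 435 on the YAP (WT), YAP (1SA) and YAP (2SA) arrays. The genes nearest to Cyp7b1 were Dio1, an iodothyronine deiodinase that activates thyroid hormone, Ptk6 and Irx1, at distances of 0.019, 0.027 and 0.051 among 2049 genes, of which 83 lay within 0.2. Dio1 had intensities of 1255, 2729 and 1581. Irx3, Slc22a3, Ptk6 and Irx1 were dim, with intensities from 14.8 to 72.5 over the arrays. The likeness rests on 3 arrays and is a description.

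The tissue label was checked against markers of hepatocytes, of which 8 of 10 were measured on all arrays and 2 were not matched by name. Their summed scaled signal was 2823 in YAP (WT), 2974 in YAP (1SA) and 2507 in YAP (2SA), and none passed 1.5-fold. In a bulk sample, fewer cells of a type and less RNA per cell cannot be told apart. Markers of other cells follow in the same order of arrays. Those of Kupffer cells, the liver macrophages, summed to 261, 186 and 159 over 10 of 10 genes. Those of bile duct summed to 14.4, 5.40 and 12.1 over 9 of 10, of stellate cells to 35.7, 36.3 and 24.3 over 9 of 10, and of red cells to 56.8, 94.8 and 71.1 over 4 of 7. Those of sinusoidal endothelium summed to 95.6, 102 and 79.9 over 9 of 10, of lymphocytes to 52.0, 45.0 and 42.9 over 7 of 10, and of neutrophils and monocytes to 10.5, 13.9 and 10.3 over 5 of 10. The sums of hepatocyte, Kupffer, stellate, endothelial, lymphocyte and neutrophil markers, and of both zones, were all lowest in YAP (2SA). So were the sums of the other synthesis, transport, regulator, clock and acute phase lists, and this order was not particular to cell markers. The sums of the sterol synthesis, YAP target, bile duct and red cell lists were not lowest there. Sums are carried by the brightest probes: the median lymphocyte and neutrophil or monocyte marker was 0.03 and 0.13 above YAP (WT) on the log2 scale in YAP (2SA). The bile duct sum was lowest in YAP (1SA), the array with the highest Cyp7b1. That sum was carried by Spp1, with intensities of 3536, 1009 and 3132 on the YAP (WT), YAP (1SA) and YAP (2SA) arrays. The other measured duct markers had intensities of 240 or less. The median duct marker was at -0.73 on the log2 scale in YAP (1SA), with 7 of 9 below 0, as were 50.3% of all genes. Markers not well above background on all 3 arrays included Muc1 for bile duct, Reln for stellate cells, Cd8a, Cd79a and Klrb1c for lymphocytes, and Mpo, Ngp and Cxcr2 for neutrophils and monocytes. The part of cell composition in these differences was not tested.

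The acute phase genes, which mark inflammation, had medians of 0.19 and -0.07 on the log2 scale in YAP (1SA) and YAP (2SA) against YAP (WT) over 10 measured genes. The 12 YAP target genes had medians of 0.05 and 0.37, beside -0.002 and -0.03 over all genes. In YAP (2SA) 4 were at least 2-fold higher than in YAP (WT), against 1.12% of all genes. In YAP (1SA) 0 were at least 2-fold higher, against 0.727%, and 1 was lower, Ankrd1 at -1.52, against 1.14%. There 7 of the 12 were above YAP (WT) and 5 below it, while 50.3% of all genes were below. The highest of the list in YAP (1SA) was Ccn1 at 0.59, which was at 1.89 in YAP (2SA). Ankrd1 was dim, with intensities of 36.5, 12.1 and 39.7 on the YAP (WT), YAP (1SA) and YAP (2SA) arrays. Ccn2, a widely used YAP target, was at -0.44 in YAP (1SA) and at 2.15 in YAP (2SA). The study describes both mutants as active. By its real-time PCR this gene, there called ctgf, was increased in both mutants and not in the wild type soon after injection. That period included the time at which the livers used here were taken. The Ccn2 value in YAP (1SA) runs opposite to the PCR result and rests on a single array. By these counts, the mutant array with more YAP targets high was the one with low Cyp7a1, and Cyp7b1 was high on the other mutant array. Whether these differences are linked was not tested.

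**Figure D4:**
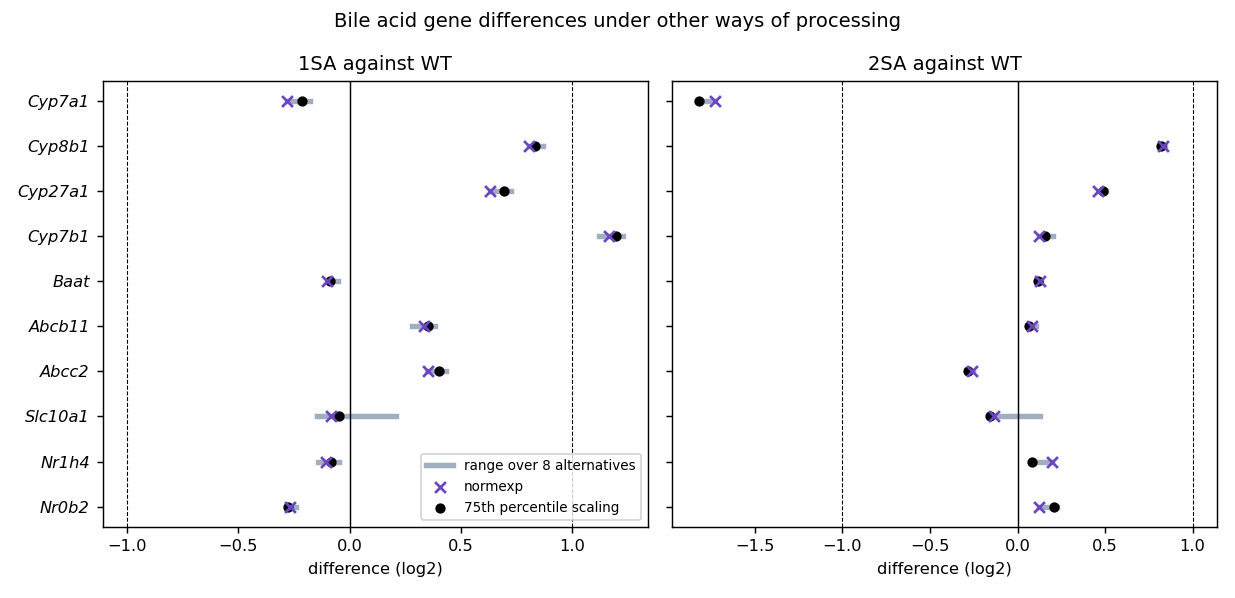
The horizontal axis is the difference from YAP (WT) on the log2 scale, with black circles for the values given above, crosses for the normexp background correction and grey bars from the lowest to the highest value over 8 alternatives. Cyp7a1 in YAP (2SA) and Cyp7b1 in YAP (1SA) stay beyond the dashed 2-fold lines under each, and the bar of Slc10a1 spans 0 in both panels.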

How the data were processed

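The authors hybridised Cy3-labelled mouse liver RNA to 3 one-colour arrays, 1 per group, on 1 slide and processed the scans with Agilent Feature Extraction 10.10.1.1. Per the file headers, deposited intensities are linear and were corrected for background and for trends within an array. The deposited series matrix holds the same intensity times 1 constant per array (3.02, 3.08 and 2.81 for WT, 1SA and 2SA), whose origin is not given in the sources used here.

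From the deposited intensities, log2 values of 59305 non-control spots (55681 probes) per array were taken, after leaving out 148 to 182 outlier spots, averaged per probe, and set relative to the array's 75th percentile (290.8, 275.7 and 319.5). A probe counted as measured where at least 50% of its spots were well above background, which 28972 to 30784 probes were. The number of arrays limits the precision.

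Accessions matched 26762 probes to symbols of a GRCm38.p6 gene table, used for names only, since the design was placed on mm9. Where several probes of a gene were measured on every array, the brightest stood for it. The 10 genes, the 17 other lists and the fold thresholds were chosen with earlier results of these data known. All 10 genes and all their probes are named. Other synthesis, transport and regulatory genes are named past 1.5-fold. From the remaining lists the rule would name each gene past 2-fold, and only those the text turns on are given. Genes below these limits named as examples were chosen after their values were seen. For genes with a range over 1 on the log2 scale, the 3 genes with the nearest centred profile were named.

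Values were recomputed with quantile normalisation, with the array median, with normexp (offset 50, on median spot and background brightness, since the files used held no mean spot brightness), from the series matrix, with no filter and a stricter filter on dim probes, at 1.5-fold and 3-fold, with the mean of all probes, and with outlier spots kept. Scripts were tested on simulated data. Python 3.11.15, pandas 2.3.3, numpy 2.4.6, matplotlib 3.10.9, R 4.3.3 and limma 3.58.1 were used.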

Additional observations from a re-analysis of the deposited data

Results flagged for a closer look

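Abcc2 differed from YAP (WT) in opposite directions in the mutants, by 0.40 on the log2 scale in YAP (1SA) and -0.28 in YAP (2SA), a gap of -0.69. Each array lay beyond 2 SD of repeated spots from the control. Of all genes, 15.7% passed that limit upwards in YAP (1SA) and 18.9% downwards in YAP (2SA). As far as Abcc2 or farther lay 5.89% of genes upwards in YAP (1SA) and 12.5% downwards in YAP (2SA). The Abcc2 difference between mutants was not tested, as there were no replicates.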

How the results depend on the processing

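Quantile normalisation, the array median and normexp can move every value. Over the 10 genes and 3 comparisons, 82 of 90 values under them moved by less than 1 SD of a difference between repeated spots (0.11 on the log2 scale), 8 moved by more, and 0 values past 2-fold changed sign. The series matrix and the filters on dim probes left the values of these genes as they were by construction, outlier spots touched Cyp27a1 alone, and the mean of all probes touched Slc10a1 alone. The count past 2-fold in YAP (1SA) against YAP (WT) was 1, and became 3 at 1.5-fold and 0 at 3-fold. In YAP (2SA) against YAP (WT) it was 1, and became 2 at 1.5-fold. In YAP (2SA) against YAP (1SA) it was 2, and became 1 at 3-fold and 1 under quantile normalisation, where Cyp7b1 was at -0.92. The median over the genes in YAP (1SA) against YAP (WT) was 0.15, and 0.28 with the mean of all probes in place of the brightest, since Slc10a1 then was at 0.21. Slc10a1 changed sign with its probes and with quantile normalisation (0.13 in YAP (2SA) against YAP (1SA)). In that comparison normexp put Cyp7a1 at -1.45 and Nr1h4 at 0.30, past the spot error. No paired analysis was possible because there was a single array for every group. For the same reason the slide as a block could not be fitted and no replicate could be left out. Dimness limits no gene of the set, since all 11 probes were well above background. That does not cover the bright end, where the brighter probe of Slc10a1 lay and disagreed with the dimmer one.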
